A study of Mus musculus with 2 samples.

Results

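Piezo1 and Piezo2, the genes of the mechanically gated Piezo ion channels, were described across the stromal cell types of the mouse colon and small intestine. Each was taken by name from the deposited UMI tables (a UMI stands for 1 captured molecule of RNA), and they are 2 of the 18545 genes listed for either library. On the GRCm38 assembly (mm10), with GENCODE annotation, Piezo1 lies on the minus strand at chr8:122481698-122551329 and Piezo2 on the minus strand at chr18:63010213-63387183. Exons of the principal transcript make up 11.8% of the 69.6 kb Piezo1 gene and 2.84% of the 377 kb Piezo2 gene. Whether reads in introns were counted is not given in the sources used here.

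The study profiled stroma, the supporting tissue of the gut wall, from healthy untreated mice by droplet single-cell RNA sequencing. The 2 groups were the colon and the small intestine, with 1 library each, and no genotype, strain, sex, age or number of animals is given in the sources used here. After removal of the epithelium the colon was digested for 60 minutes and the small intestine for 45 minutes. Live cells lacking both CD45, an immune marker, and Epcam, an epithelial one, were then sorted. About 16000 cells per library were loaded, and the cell type names below are the authors'. Because a tissue and its library cannot be told apart here, no difference between tissues was tested, and all intervals are 95% intervals that cover counting error only.

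Piezo proteins are very large, propeller-shaped membrane proteins that assemble around a central pore. Stretch or bending of the membrane opens them and lets calcium and other cations into the cell. Piezo1 is known for sensing blood and lymph flow in endothelium and is needed for lymphatic valves. Piezo2 is best known from sensory neurons and Merkel cells, where it serves touch and the sense of limb position, and in the gut from enterochromaffin cells and sensory nerve endings.

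The colon library held 6018 cells with 40684070 UMIs (median 6598 per cell, range 1502 to 25718). The small intestinal library held 9359 cells with 58134526 UMIs (median 5943, range 820 to 19886), and 21 cell barcodes occurred in both libraries. In both libraries all 6 markers each of lymphatic endothelium (LECs) and smooth muscle (SMCs) were highest in the type of that name. So were 6 of 7 markers of trophocytes, the Cd81-positive fibroblasts that secrete the BMP inhibitor Gremlin 1, and 7 of 8 of SEMFs, the Pdgfra-high fibroblasts under the epithelium. Blood endothelial cells (BECs) held the highest level of 6 of 7 of their markers in the colon and 5 of 7 in the small intestine. The CD81- fibroblasts (CD81- FBs) did so for 4 of 5 in the colon but 1 of 5 in the small intestine, where 2 of the 5 were highest in SMCs. Markers of the gut cells best known for Piezo2 were low in every type. The 1 enteroendocrine marker listed, in the small intestine only, reached at most 0.357 CPM, where CPM is a gene's UMIs scaled to 1000000 UMIs of the type. Summed epithelial markers reached at most 3.71 CPM and those of enteric glia 5.63 CPM. Enteric neuron markers summed to at most 6.78 CPM in the small intestine, and the 1 listed for the colon reached 18.7 CPM, in trophocytes.

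Piezo1 was measured in every type and was highest in endothelium. In the colon it stood at 161 CPM (interval 137 to 186) in LECs and 137 CPM (96.6 to 189) in BECs. The 4 other colon types lay close together, at 86.5 CPM (82.9 to 90.2) in CD81- FBs, 73.6 (67.5 to 80.0) in SEMFs, 71.2 (53.7 to 92.7) in SMCs and 71.0 (64.6 to 77.8) in trophocytes. In this order LECs and BECs did not differ beyond counting error, and neither did SEMFs, SMCs and trophocytes as neighbours. From the highest to the lowest colon type the Piezo1 level differed 2.26-fold.

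The small intestinal order for Piezo1 began with BECs, at 159 CPM (142.5 to 176), and LECs, at 111 CPM (105 to 118), and these neighbours differed beyond counting error. SMCs followed at 52.7 CPM (44.6 to 62.0) and CD81- FBs at 45.1 CPM (42.3 to 48.2), which did not. Trophocytes at 33.3 CPM (30.5 to 36.4) and SEMFs at 21.3 CPM (17.9 to 25.2) closed the order. The spread from BECs to SEMFs was 7.45-fold, so the fibroblasts and the endothelium lay farther apart in the small intestinal library than in the colon library. Set against all other compared cells of the small intestine, the Piezo1 level was 3.0 times as high in BECs (2.68 to 3.36) and 2.54 times as high in LECs (2.36 to 2.72). For comparison, 16.8% of the 16029 genes tested reached 2 times the level of the rest in BECs and 13% did in LECs. In the colon LECs the Piezo1 ratio was 1.97 (1.68 to 2.29), where 17.6% of 15117 genes reached 2. In the colon BECs it was 1.65 (1.16 to 2.27), and 38.9% of genes had a higher ratio.

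**Figure D1:**
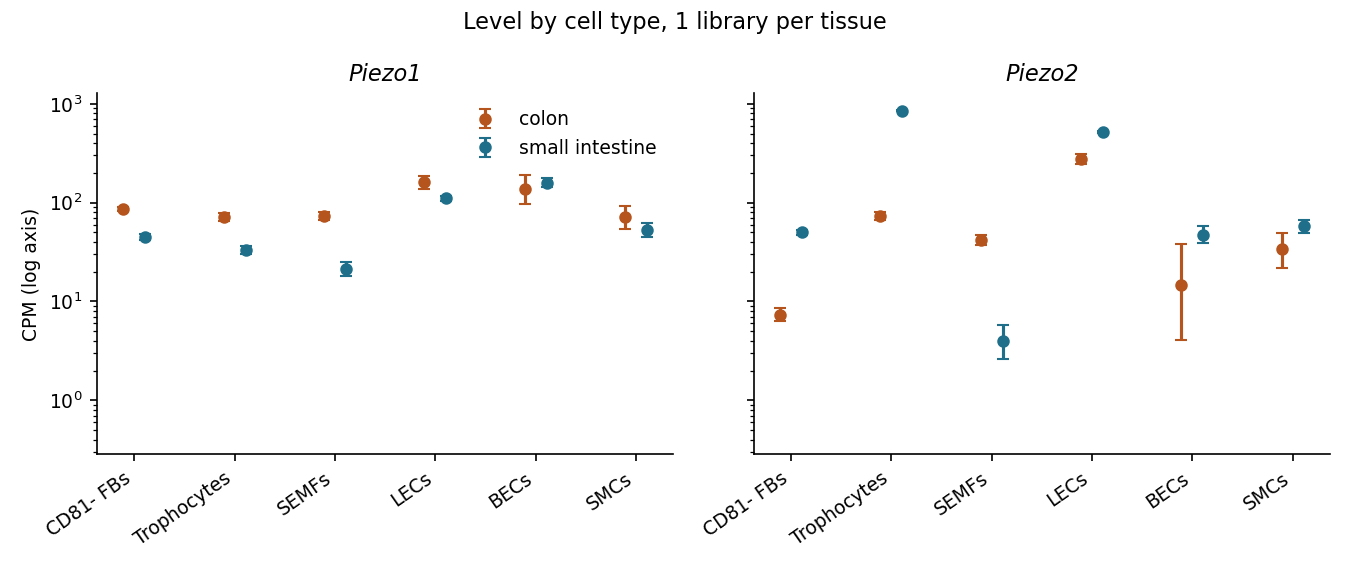
Level of Piezo1 (left) and Piezo2 (right) in 6 cell types, in CPM on a log axis, for the colon and the small intestinal library; points are levels and bars 95% Poisson intervals of the UMI count, 1 library per tissue. Piezo1 lies between 21.3 and 161 CPM in all 12 groups, while Piezo2 runs from 3.99 CPM in small intestinal SEMFs to 852 CPM in small intestinal trophocytes.

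Piezo2 levels were highest in trophocytes and lymphatic endothelium. In the small intestine it reached 852 CPM (838 to 867) in trophocytes and 514 CPM (501 to 528) in LECs, and these neighbours differed beyond counting error. SMCs at 57.7 CPM (49.2 to 67.3), CD81- FBs at 50.2 CPM (47.2 to 53.4) and BECs at 47.4 CPM (38.8 to 57.5) followed, below LECs and above SEMFs beyond counting error. SMCs and CD81- FBs did not differ beyond it, nor did CD81- FBs and BECs. SEMFs were lowest at 3.99 CPM (2.60 to 5.84), so that the Piezo2 level spanned 214-fold between trophocytes and SEMFs. Trophocytes, 20.4% of the small intestinal cells, held 64.3% of the library's Piezo2 UMIs, and LECs, 26.7% of the cells, held 28.9%.

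The colon order for Piezo2 was led by LECs at 274 CPM (244 to 307). Trophocytes came next at 72.9 CPM (66.4 to 79.8) and SEMFs after them at 41.8 CPM (37.3 to 46.7), each below its predecessor beyond counting error. SMCs at 33.7 CPM (22 to 49.3), BECs at 14.8 CPM (4.04 to 38.0, from 4 UMIs) and CD81- FBs at 7.37 CPM (6.33 to 8.52) did not differ from their neighbours in the order. CD81- FBs made up 60.3% of the colon cells and 14.1% of the Piezo2 UMIs, against 62.7% of the Piezo1 UMIs. The Piezo2 level spanned 37.2-fold between colon LECs and CD81- FBs.

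Few genes stood out in trophocytes as Piezo2 did. Its small intestinal trophocyte level was 5.17 times that of all other compared cells of the library (5.02 to 5.32), and 1.53% of the genes had a higher ratio. Of the 16029 genes, 5.8% reached 2 times the level of the rest there. In colon trophocytes the Piezo2 ratio was 3.06 (2.73 to 3.44), where 6.46% of genes reached 2, and in colon LECs it was 11.0 (9.61 to 12.5), where 17.6% did and 2.31% of genes had a higher ratio. In small intestinal LECs the Piezo2 ratio was 1.70 (1.65 to 1.76), and 15.9% of genes had a higher one. At the other end, 99.6% of the genes had a higher ratio than Piezo2 in small intestinal SEMFs, where its level was 0.0103 times that of the rest and 15.7% of genes were at 0.5 times or less.

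Cells were also counted by their Piezo2 UMIs. A Piezo2 UMI was found in 80.3% of the 1913 small intestinal trophocytes (78.5 to 82.1%), and 25.8% of them held 10 or more, up to 57 in 1 cell. Of the 875 colon trophocytes 22.3% had a Piezo2 UMI (19.6 to 25.2%), and 0.457% held 10 or more, up to 17. Small intestinal LECs had a Piezo2 UMI in 71.3% of 2498 cells and colon LECs in 65.4% of 217 cells. The median depth was 7807 UMIs per cell in small intestinal trophocytes, 7186 in colon trophocytes, 4117.5 in small intestinal LECs and 4545 in colon LECs. The lowest share was that of small intestinal SEMFs, at 1.98% of 1109 cells (median depth 5510). Free RNA could give such a share, which was not tested, and the share is no background for the other types. Markers of other types were unevenly spread in this library. Summed LEC markers, for example, stood at 55.2 CPM in SEMFs, 33.2 CPM in CD81- FBs, 161 CPM in SMCs and 1265 CPM in BECs. In the colon the lowest share was that of CD81- FBs, at 3.53% (median depth 6697).

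Since deeper cells show a gene more often, the shares were also computed with every cell thinned to 2500 UMIs. The Piezo2 shares then became 65.5% and 12.3% in small intestinal and colon trophocytes, 60.8% and 45.3% in LECs, and 0.837% in small intestinal SEMFs. Colon SEMFs stood at 7.12% and colon CD81- FBs at 1.47%. The remaining Piezo2 shares, in small intestinal CD81- FBs and in BECs and SMCs of both tissues, lay between 4.64% and 7.87%. For Piezo1 the thinned shares were highest in endothelium, at 28.6% in colon LECs, 28.6% in small intestinal BECs, 27.0% in colon BECs and 22.8% in small intestinal LECs. Thinned Piezo1 shares in the fibroblast types ran from 14.8% to 17.0% in the colon and from 5.35% to 10.5% in the small intestine. Without thinning, the Piezo1 share ran from 11.9% in small intestinal SEMFs to 45.6% in colon LECs, and no type that should lack Piezo1 was available as a background.

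**Figure D2:**
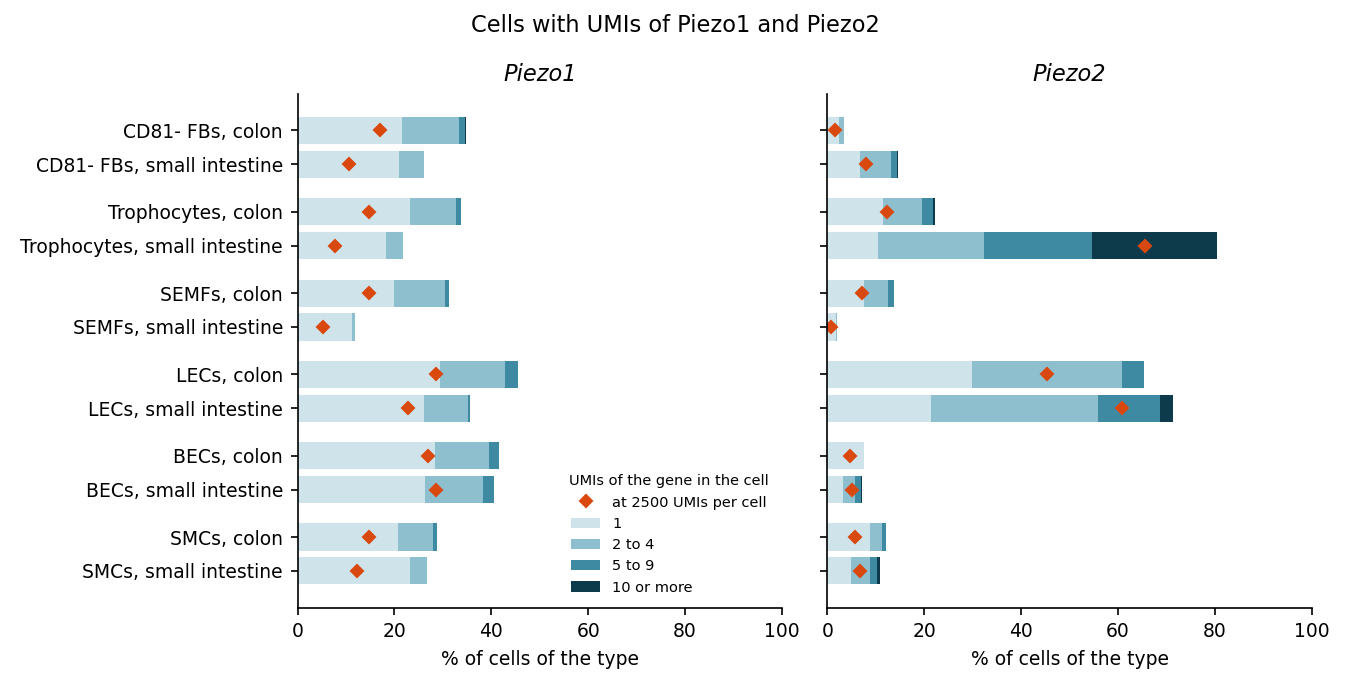
Share of the cells of each type, in percent, with 1, 2 to 4, 5 to 9 or 10 and more UMIs of Piezo1 (left) and Piezo2 (right), with diamonds for the share of cells with any UMI once each cell is thinned to 2500 UMIs. Cells with 10 or more Piezo2 UMIs make up 25.8% of small intestinal trophocytes and 2.52% of small intestinal LECs.

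Between the tissues, Piezo1 and Piezo2 differed in opposite directions in the pooled fibroblasts, though not in SEMFs, where both were higher in the colon. Pooled over the 3 fibroblast types, Piezo1 stood at 81.4 CPM (colon) against 37.2 CPM (small intestine). Its log2 ratio of colon to small intestine was 1.13 (1.04 to 1.22), or 2.19-fold. Piezo2 stood at 24.8 CPM (colon) against 332 CPM (small intestine), which gave -3.74 (-3.84 to -3.65), or 13.4-fold higher in the small intestine. Among the 15676 genes tested in fibroblasts, 9.75% had a log2 ratio of 1 or more and 10.2% had -1 or less. Ratios above that of Piezo1 were found for 8.39% of genes and ratios below that of Piezo2 for 0.262%. The median of all genes tested was -0.15, and relative to the median gene (genes with 100 or more UMIs in both) the ratios were 1.32 for Piezo1 and -3.55 for Piezo2. The pools also differed in their mix of types. Trophocytes made up 875 of the 5611 pooled colon cells and 1913 of the 5845 pooled small intestinal cells. With the 3 types weighted equally, the log2 ratio was 1.21 for Piezo1 and -2.89 for Piezo2. Between libraries of 1 sample each, a difference in RNA content per cell or in handling cannot be told apart from one between tissues.

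Within the fibroblast types, Piezo1 was higher in the colon throughout. The log2 ratio was 0.94 (0.83 to 1.05) in CD81- FBs, 1.09 (0.90 to 1.28) in trophocytes and 1.79 (1.52 to 2.07) in SEMFs. A log2 ratio of 1 or more was reached by 9.71% of genes in CD81- FBs, 7.92% in trophocytes and 8.41% in SEMFs. In LECs the Piezo1 ratio was 0.53 (0.29 to 0.76). Neither in BECs, at -0.21 (-0.74 to 0.28), nor in SMCs, at 0.43 (-0.04 to 0.89), did the Piezo1 interval exclude 0, with 37 and 55 colon UMIs behind these values.

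Piezo2 split the fibroblast types. The small intestinal level was the higher one in CD81- FBs, at -2.77 (-3.00 to -2.54), and in trophocytes, at -3.55 (-3.68 to -3.41). In SEMFs it was higher in the colon, at 3.39 (2.81 to 4.03), from 311 colon and 26 small intestinal UMIs. Ratios of -1 or less were found for 12.1% of genes in CD81- FBs and 9.8% in trophocytes, and ratios below that of Piezo2 for 1.05% and 0.407%. In SEMFs 1.2% of genes had a ratio above that of Piezo2.

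Outside the fibroblasts the Piezo2 ratio was negative with intervals below 0. LECs gave -0.91 (-1.08 to -0.74), where 15.7% of genes had -1 or less, and SMCs -0.78 (-1.44 to -0.17), where 20.7% did. BECs gave -1.68 (-3.58 to -0.28), where 18.8% did. Markers of the types richest in Piezo2 were also seen in BECs, SMCs and CD81- FBs, and their tissue differences went in both directions. Summed LEC markers stood at 1265 CPM in small intestinal BECs and 29.7 CPM in colon BECs, against 20691 CPM in small intestinal LECs. Summed trophocyte markers stood at 510 CPM in small intestinal SMCs and 57.0 CPM in colon SMCs, with 5724 CPM in small intestinal trophocytes. In BECs the trophocyte markers went the other way, at 897 CPM in the small intestine and 1394 CPM in the colon. Cd34 is on both the BEC and the trophocyte marker list. In CD81- FBs summed trophocyte markers stood at 1605 CPM in the small intestine and 861 CPM in the colon. The median over these markers was level there, at 37.1 CPM in the small intestine and 38.0 CPM in the colon. The part of transcripts from other types in the Piezo2 differences was not tested. Small intestinal Piezo2 UMIs in SMCs were also uneven, 14.2% of them coming from 1 cell.

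**Figure D3:**
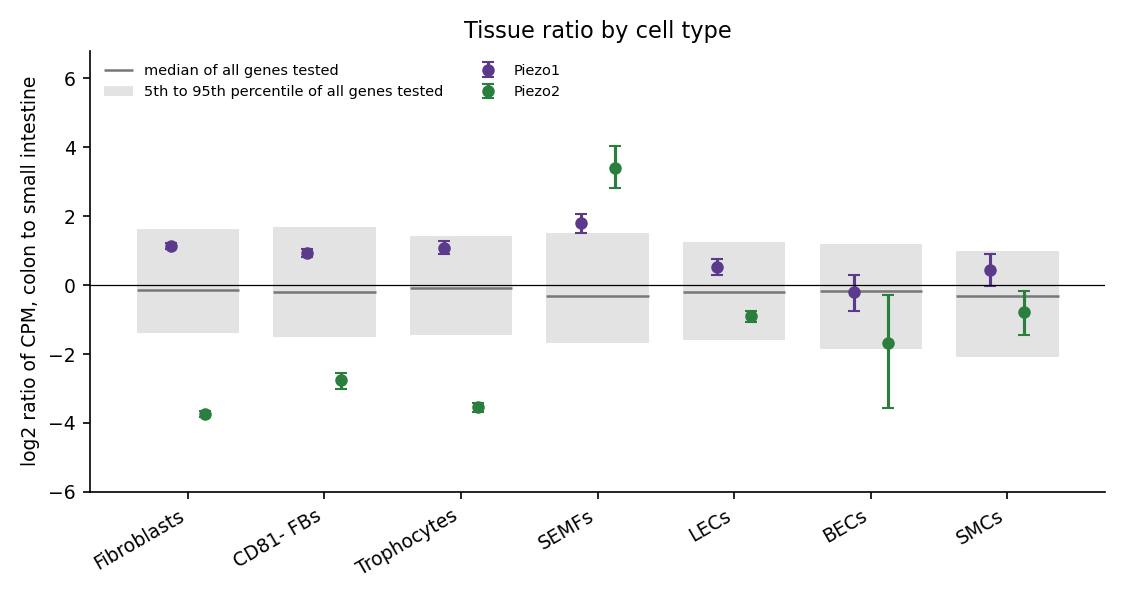
Log2 ratio of colon to small intestinal CPM of Piezo1 and Piezo2 in pooled fibroblasts and in each cell type, with 95% counting intervals; the grey box spans the 5th to the 95th percentile of all genes tested in that type and the line is their median. Piezo2 lies below the box in CD81- FBs and trophocytes and above it in SEMFs, at 3.39.

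The colon library held cells of more than 1 kind by sex-linked transcripts, 1751 cells with only Y-linked UMIs and 2700 with only UMIs of Xist, the RNA of the inactive X chromosome. Piezo1 was level between them in fibroblasts, at 83.1 and 82.6 CPM. Piezo2 stood at 33.9 CPM in the Y-linked and 20.4 CPM in the Xist cells, a log2 ratio of 0.73 (0.53 to 0.94). In trophocytes this Piezo2 difference was 104 against 47.9 CPM (log2 ratio 1.12, 0.81 to 1.43), while in SEMFs it was 47.0 against 42.8 CPM (0.14, -0.23 to 0.50). The small intestinal table does not list Xist and had a Y-linked UMI in 6896 of 9359 cells. The libraries thus differed in their mix of sex-linked transcripts, which cannot be told apart from tissue. In pooled fibroblasts the Piezo2 log2 ratio of colon to small intestine was -3.74 with all colon cells and -3.29 with the Y-linked ones alone. Set against the small intestine, Piezo2 in colon trophocytes gave -3.03 with the Y-linked cells alone and -4.15 with the Xist cells alone. The number of animals behind each kind of cell is not given in the sources used here.

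Detection of Piezo1 made little difference to detection of Piezo2 in the types richest in Piezo2. In small intestinal trophocytes, 83.5% of cells with a Piezo1 UMI and 79.5% of those without one had a Piezo2 UMI, and at equal depth the shares were 66.0% and 65.4%. In small intestinal LECs the Piezo2 shares were 74.2% and 69.6%, or 61.4% and 60.5% at equal depth. Both genes were seen in 18.2% of small intestinal trophocytes, 26.4% of small intestinal LECs and 31.8% of colon LECs. Colon SEMFs with a Piezo1 UMI had a Piezo2 UMI in 18.3% of cells against 11.8% of the others, and at equal depth in 8.83% against 6.32%. In small intestinal BECs the shares were 10.3% and 4.82%, or 7.1% and 3.45% at equal depth. Of the 6 LEC markers, Mmrn1 (2.33-fold) and Ccl21a (2.06-fold) were higher in the BECs with a Piezo1 UMI. These markers were named because they passed the fold, and the others are not given here for these cells. Across the 12 combinations of tissue and type the levels of the genes were almost unrelated, with a Pearson correlation of 0.17 on the log2(CPM + 1) scale and a Spearman correlation of 0.042. These points share 2 libraries and carry no test.

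Cells with a Piezo2 UMI were then set beside cells of the same type without one, gene by gene, where at least 100 cells were positive. Positive cells were deeper, for example 8012 against 6797 UMIs at the median in small intestinal trophocytes, and the levels compared are CPM. In small intestinal trophocytes 55 of 4560 genes, 1.21%, were at least 2 times as high in the positive cells, and 42 were at most 0.5 times. Leading among them were Edil3, a matrix protein that binds integrins (118 against 12.7 CPM, 9.25-fold), and Cacnb2, a subunit of voltage-gated calcium channels (307 against 54.8 CPM, 5.61-fold). Pdgfc, a platelet-derived growth factor (5.40-fold), Lrrtm3, a membrane protein known from synapses (4.63-fold), and Glrb, a glycine receptor subunit (4.12-fold), came next. Lower in the positive cells were Ptn, the growth factor pleiotrophin (0.0760-fold), Inmt, a methyltransferase (0.254-fold), Tmem100 (0.268-fold) and Ccn2, a matrix protein and YAP target (0.298-fold). The largest deficit, that of Ccl21a, rested on 1 negative cell, which held 70.1% of its UMIs.

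The 7 trophocyte markers were compared between the same cells in each library. Grem1, which encodes Gremlin 1, was higher in Piezo2-positive trophocytes, at 1333 against 331 CPM in the colon (4.02-fold, 3.77 to 4.30) and 1430 against 646 CPM in the small intestine (2.21-fold, 2.10 to 2.33). Pi16, known from adventitial fibroblasts around vessels, was lower, at 0.393-fold (0.338 to 0.454) in the colon and 0.408-fold (0.375 to 0.444) in the small intestine. Cd81, which gives the cells their label, was level, at 0.954-fold and 0.984-fold. Ackr4, a scavenger receptor for chemokines, stood at 1.35-fold and 1.28-fold, and Cd34, a sialomucin of fibroblast and endothelial surfaces, at 0.779-fold and 0.773-fold. C3, a complement component, stood at 1.09-fold and 1.06-fold, and Dpp4, a surface peptidase, at 0.515-fold (0.304 to 0.831) and, from 13 and 4 UMIs, 0.654-fold (0.202 to 2.75). In colon trophocytes the other leading genes were P2ry14, a nucleotide-sugar receptor (2.47-fold), C7, a complement component (2.32-fold), Apoe, a lipid carrier (2.20-fold), and Lepr, the leptin receptor (2.09-fold). They were 5 of the 6 genes at least 2 times as high, of 1895 tested (0.317%), counting Grem1. Among the 5 genes at most 0.5 times were Adamdec1, a protease of gut fibroblasts (0.351-fold), and Bmp6, a bone morphogenetic protein (0.440-fold).

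**Figure D4:**
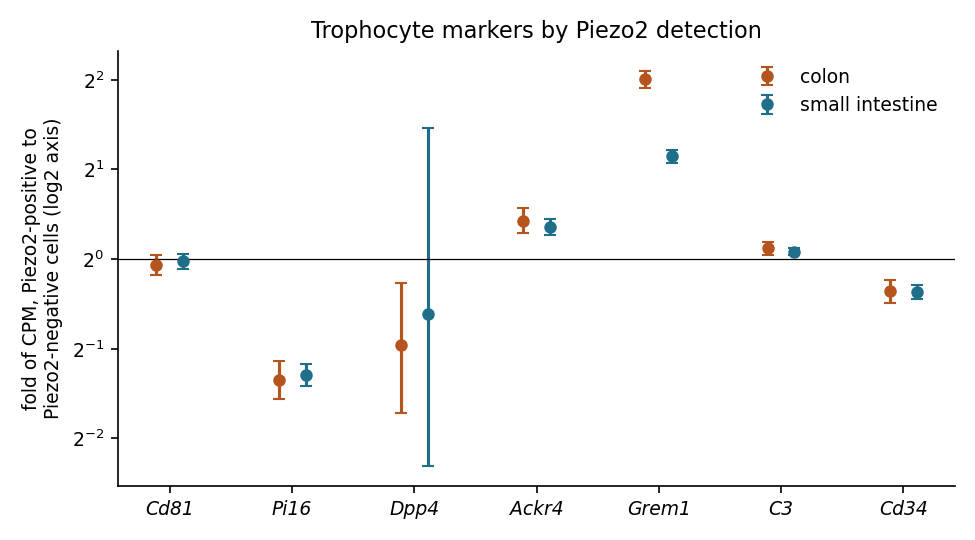
Ratio of CPM in Piezo2-positive to Piezo2-negative trophocytes for the 7 trophocyte markers, on a log2 axis, with 95% counting intervals, for the colon and the small intestinal library. Grem1 lies above 1 and Pi16 below 1 in both libraries, and the wide small intestinal bar of Dpp4 rests on 13 and 4 UMIs.

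Piezo2-positive CD81- FBs of the small intestine held more of the trophocyte markers Ackr4, Grem1, C3 and Cd81. The markers Pi16, Dpp4 and Cd34 are not given here for these cells. Adamtsl1, a matrix protein (4.09-fold), Ackr4 (3.70-fold), Cilp, a cartilage matrix protein (3.57-fold), Cacnb2 (3.47-fold) and Dkk2, a modulator of WNT signalling (3.25-fold), were the leading genes of 40 among 6104 (0.655%) at least 2 times as high. Grem1 was 2.29-fold and C3 2.03-fold higher, while Cd81 stood at 16.5 against 6.48 CPM. Lower in them were Mmp10, a matrix protease (0.122-fold), Agt, angiotensinogen (0.155-fold), and Wnt4, a WNT ligand (0.175-fold). These positive cells had a median of 7945 UMIs, the others 6824. In the colon the Piezo2-positive CD81- FBs differed otherwise, and their Grem1 level was 264 against 339 CPM (0.779-fold, 0.688 to 0.879). There the leading genes were Nrg1, the growth factor neuregulin 1 (313 against 33.2 CPM, 9.45-fold), Cd36, a fatty acid transporter (7.46-fold), Col6a5, a collagen VI chain (4.85-fold), Emid1 (4.76-fold) and S100a4, a calcium-binding protein of fibroblasts (4.49-fold). They were among 71 of 6230 genes, 1.14%, at least 2 times as high. Mgp, an inhibitor of calcification (0.223-fold), Scara5, a ferritin receptor (0.212-fold), and Itm2a (0.211-fold) were among the lower ones.

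The 153 Piezo2-positive SEMFs of the colon were the group most unlike its negative neighbours. Of 2473 genes 92, or 3.72%, were at least 2 times as high in them and 82 at most 0.5 times. Ptprr, a tyrosine phosphatase, stood at 278 against 26.5 CPM (10.5-fold), and 52.7% of the 188 SEMFs with a Ptprr UMI had a Piezo2 UMI, against 5.89% of those without. Igfbp6, which binds insulin-like growth factors (6.63-fold), Plau, the urokinase protease (6.02-fold), Cdkn1a, the cell cycle inhibitor p21 (5.62-fold), and Nr4a2, a nuclear receptor (5.39-fold), were also high. Lower were Kcnq5, a potassium channel (22.6 against 215 CPM, 0.105-fold), Itm2a (0.106-fold), Aspn, the matrix protein asporin (0.162-fold), Tagln, an actin-binding protein of contractile cells (0.167-fold), and Scn7a, a sodium channel gene (0.172-fold).

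Of the 8 SEMF markers some were level between these colon cells and the other SEMFs and some were not. Pdgfra, the receptor for platelet-derived growth factor, stood at 1139 against 1137 CPM, Bmp5, a bone morphogenetic protein, at 0.918-fold, and F3, tissue factor, at 0.953-fold. Foxl1, a transcription factor of these cells, was 1.15-fold and Bmp7, another bone morphogenetic protein, 1.12-fold, both with intervals that included 1. Wnt5a, a WNT ligand, was 1.55-fold, Col6a5, a collagen VI chain, 5.20-fold and Sox6, a transcription factor, 0.461-fold. Of the trophocyte markers, Grem1 was at 4.84 CPM and C3 at 6.45 CPM in the positive SEMFs, near their level in the negative ones, while Cd81 stood at 32.3 against 4.52 CPM. The trophocyte markers Pi16, Dpp4, Ackr4 and Cd34 are not given here for SEMFs. Cd81 in Piezo2-positive colon trophocytes stood at 564 CPM. The positive SEMFs had a median of 7495 UMIs against 6132, and the part of depth or of joined cells in these differences was not tested. In small intestinal SEMFs, where 22 cells had a Piezo2 UMI, Ptprr stood at 2.15 CPM against 68.4 CPM in all colon SEMFs, and Igfbp6 at 5.21 against 123 CPM. The other leading genes of the positive colon cells were also lower there, Plau at 2.91 against 72.1 CPM, Cdkn1a at 14.3 against 68.8 CPM and Nr4a2 at 6.44 against 123 CPM. All these genes were chosen in the colon, where at least 500 UMIs in SEMFs were required. That choice favours a lower small intestinal level, which is therefore not a result of its own. In SEMFs 8.41% of all genes tested had a log2 ratio of colon to small intestine of 1 or more. The genes low in the positive colon cells went both ways. Kcnq5 stood at 484 CPM in small intestinal and 183 CPM in colon SEMFs, Tagln at 2605 and 1120.0 CPM, and Itm2a at 105 and 90.4 CPM. Aspn was lower in the small intestine, at 210.2 against 881 CPM, and so was Scn7a, at 77.7 against 97.0 CPM.

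Lymphatic cells with and without a Piezo2 UMI were close to each other. In small intestinal LECs 3 of 4233 genes (0.0709%) were at least 2 times as high in positive cells: Angpt2, an angiopoietin (2.32-fold), Nexmif (2.29-fold) and Agmo, an ether lipid enzyme (2.00-fold). Reln, which encodes reelin, a secreted protein of collecting lymphatics, was 1.38-fold, and the other 5 LEC markers lay between 0.879-fold (Ccl21a) and 1.12-fold (Prox1). Klf2, a flow-responsive transcription factor, was 0.729-fold (0.700 to 0.760) and Gja4, the gap junction protein connexin 37, 0.741-fold (0.644 to 0.854), whereas Klf4 was 1.01-fold. Other flow-responsive genes are not given here for these cells. Of the 7 genes at most 0.5 times, Tagln (0.298-fold) and Acta2 (0.350-fold) had 21.7% and 24.7% of their UMIs in 1 cell. In colon LECs none of the 246 genes tested (0%) was 2 times as high, with 142 positive and 75 negative cells.

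Few genes went with Piezo1 detection. Positive cells held on average from 1.05 (small intestinal SEMFs) to 1.70 (colon CD81- FBs) Piezo1 UMIs. With so few UMIs the split depends much on sampling, so it cannot show that Piezo1 marks no group of cells. In the 9 combinations of tissue and type with at least 100 positive cells, at most 3 genes were at least 2 times as high in Piezo1-positive cells. The 3 were in small intestinal BECs, of 769 genes tested (0.39%), namely Mmrn1, Ccl21a and Il1r1, the interleukin 1 receptor. Colon trophocytes gave 1 of 1895 (0.0528%), Igfbp5, a binding protein of insulin-like growth factors, at 260 against 110 CPM (2.36-fold). Small intestinal LECs gave 2 of 4233 (0.0472%) and CD81- FBs 1 of 6104 (0.0164%), and the share was 0% in the other 5 combinations. In Piezo2-positive colon trophocytes the same gene was lower, at 0.388-fold.

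Among 9540 genes with at least 20 CPM in any group, the genes most like Piezo1 over the 12 combinations of tissue and type were, by Pearson correlation on the log2(CPM + 1) scale, 2510002D24Rik (0.945), Plec (0.933), Syn3 (0.915), Hey1 (0.912) and Ninj1 (0.909). Plec encodes plectin, a linker of the cytoskeleton, and Hey1 a Notch target of endothelium. Like Piezo1, Plec was highest in colon LECs (284 CPM) and lowest in small intestinal SEMFs (33.9 CPM). The genes most like Piezo2 were Vldlr, a receptor for lipoproteins and reelin (0.846), Rgs7bp, a regulator of G protein signalling (0.834), Zfpm2, a transcriptional cofactor (0.814), Me3, a mitochondrial malic enzyme (0.796), and Tmeff2, a membrane protein (0.794). Vldlr was highest in small intestinal LECs (103 CPM) and trophocytes (88.0 CPM) and stood at 0.460 CPM in small intestinal SEMFs. It did not share the colon SEMF level of Piezo2, with 1.21 CPM there. The correlations describe 12 points from 2 libraries.

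Other channels reported to respond to force or pressure were examined as a list of 24 genes, of which 17 could be compared in fibroblasts. Of these, 1 was at least 2 times as high in the colon (Trpc6, 1.83, from 23 and 7 UMIs) and 1 in the small intestine (Kcnk2), where 9.75% and 10.2% of all genes tested reached the fold. Their median log2 ratio was -0.43, against -0.15 for all genes tested. Kcnk2, the stretch-activated potassium channel TREK-1, stood at 148 CPM (colon) and 355 CPM (small intestine), a log2 ratio of -1.26. Its level ran against that of Piezo2 in SEMFs, with 583 CPM in the small intestine and 27.0 CPM in the colon. Tmem87a (-0.73) and Trpm4, a calcium-activated cation channel (-0.70), were the next lowest ratios. Tmc4 (0.37), Trpv2, a cation channel (0.22), and Tmem63b, an osmosensitive channel (0.12), were the highest of the genes with at least 100 UMIs in the 2 libraries together.

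Some of these channels were found mainly in 1 type. Trpc6, a cation channel opened by diacylglycerol, was an SMC gene, at 88.0 and 78.0 CPM, and below 1 CPM in the other types. Trpv2 too was highest in SMCs, at 41.4 and 25.3 CPM. Trpv4, a cation channel of endothelium, reached 21.0 CPM in small intestinal BECs and 8.45 CPM in colon LECs. Pkd2, the calcium-permeable channel polycystin 2, and Trpm7, a magnesium and calcium channel, were found in all types, Pkd2 between 51.9 and 272 CPM.

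**Figure D5:**
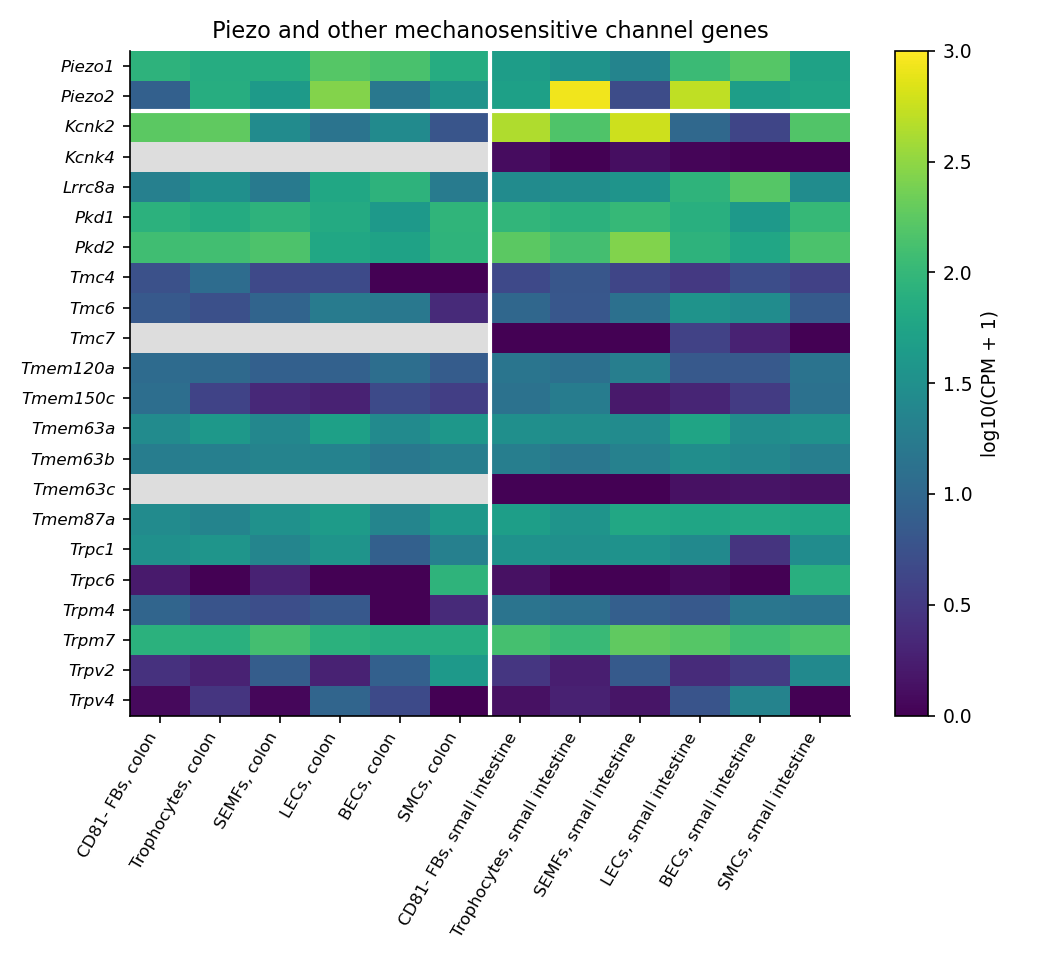
Levels of Piezo1, Piezo2 and other mechanosensitive channel genes by cell type, as log10(CPM + 1), colon left and small intestine right of the white line; grey marks genes not listed for the colon. The scale is not corrected for gene length, so it compares types within a gene, not genes: Piezo2 peaks in small intestinal trophocytes (852 CPM) and Trpc6 in SMCs.

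Next, 8 proteins that bind or tune Piezo channels were examined. Of 7 compared in fibroblasts, 1 was at least 2 times as high in the colon and 0 in the small intestine (9.75% and 10.2% of all genes), with a median log2 ratio of -0.45 against -0.15 for all genes. Mdfic, a transcriptional inhibitor whose protein also binds Piezo channels, stood at 66.4 CPM (colon) and 101 CPM (small intestine), or -0.61. By type Mdfic was highest in LECs, with 130.5 CPM (colon) and 214 CPM (small intestine), and in trophocytes it was 52.5 and 114 CPM. Its paralogue Mdfi gave -0.44, Mtmr2, a lipid phosphatase, -0.57, and Atp2a2, the calcium pump SERCA2, -0.51. Ctnnb1, beta-catenin, gave 0.14. Pecam1, an endothelial adhesion protein, gave 1.60 in fibroblasts, at 9.01 against 2.97 CPM, and 24.2 CPM of it was seen in colon trophocytes.

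Calcium entering through a Piezo channel can act through calcineurin and NFAT factors. Of 14 genes of calcium release and calcineurin-NFAT signalling compared in fibroblasts, 2 were at least 2 times as high in each tissue, where 9.75% (colon) and 10.2% (small intestine) of all genes were, with a median of -0.33 against -0.15. Rcan2 (2.78) and Rcan1 (1.21), regulators of calcineurin, were higher in the colon, and so, within the fold, was Nfatc4 (0.79). Itpr2, a calcium release channel (-1.14), and Ppp3cc, a calcineurin subunit (-1.18), were higher in the small intestine, with Stim1, a sensor of calcium stores, at -0.88. Within the colon, Rcan2 stood at 99.3 CPM in CD81- FBs, 53.6 CPM in trophocytes and 2.69 CPM in SEMFs, whereas Piezo2 was lowest in CD81- FBs.

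The YAP/TAZ list, a pathway that reads cell stretch, gave 2 of 15 genes at least 2 times as high in colon fibroblasts and 0 in small intestinal ones (9.75% and 10.2% of all genes), with a median of -0.33 against -0.15 for all genes. Ccn2, a matrix protein (2.44, 355 against 65.2 CPM), and Nuak2, a kinase (1.55), were those genes, followed by Lats2, a kinase that restrains YAP (0.23). Yap1 (-0.51), its partner Tead1 (-0.57) and Amotl2, a scaffold (-0.65), had the lowest ratios. Among 10 genes of focal adhesions 0 reached the fold in the colon, against 9.75% of all genes, and 2 did in the small intestine, against 10.2%. These were Itga1, a collagen-binding integrin chain (-1.41), and Ptk2, focal adhesion kinase (-1.06). Lmna, lamin A (0.70), Itga5, a fibronectin-binding integrin chain (0.39), and Tln1, talin (0.20), were highest, Zyx, zyxin, stood at -0.33, and the median was -0.20.

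A list of 9 flow-responsive endothelial genes was compared in LECs. None was at least 2 times as high in the colon (7.09% of all genes tested in LECs were) and 1 was in the small intestine (15.7% were), with a median log2 ratio of -0.81 against -0.20 for all genes. Itga9, an integrin chain of lymphatic valves, stood at 169 CPM (colon) and 440 CPM (small intestine), or -1.38, Klf2 at 477 and 946 CPM (-0.99) and Foxc2, a transcription factor of valves, at 13.1 and 25.7 CPM (-0.97). Nos3, endothelial nitric oxide synthase, gave -0.68. Gata2, a transcription factor (0.26, -0.29 to 0.78), and Celsr1, a planar polarity protein (0.47, -0.11 to 1.01), had intervals that included 0.

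Rare labels add a few counts. The 8 colon pericytes, contractile cells around capillaries, held 8 Piezo2 UMIs in 6 cells and 3 Piezo1 UMIs in 2 cells, and all 5 of the pericytes labelled ecmPCs had Piezo2. Their Piezo2 share of 75% has an interval of 34.9 to 96.8%. Among the 24 small intestinal cells labelled as proliferating, 14 had Piezo2 (49 UMIs) and 8 had Piezo1 (14 UMIs). The 4 such colon cells held 7 Piezo1 UMIs in 3 cells and no Piezo2 UMI, which allows a level of up to 97.9 CPM (3 counts of their total). Colon BECs could be split by label, and the 45 capillary cells held all 4 Piezo2 UMIs and 34 of the 37 Piezo1 UMIs.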

How the data were processed

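For each tissue the authors deposited raw UMI counts per gene and cell, used for all main values, natural log values of the same counts, and a cell type label per cell. Per the submitters' processing notes, Cell Ranger 7.1.0, Seurat 4 and the mm10 build were used; filters and intron counting are not given in the sources used here. Every deposited natural log value equalled ln(1 + 10000 × UMIs / total UMIs of the cell) within 1e-06. UMIs were summed per library and type with Python 3.11.15 and scipy 1.17.1; levels are CPM with exact Poisson intervals, shares have Clopper-Pearson intervals, and ratios have exact conditional binomial intervals (95%). The interval code was tested on simulated data. Doublets were not removed. Comparisons were limited to types with 50 or more cells per library, the colon's 3 blood endothelial labels pooled as BECs. Tissue ratios used genes listed for both libraries with at least 20 UMIs in the type; a floor of 3 counts replaced 0. Shares at equal depth are expectations at 2500 UMIs per cell, leaving out shallower cells. Positive and negative cells were compared for genes with at least 500 UMIs in the type, the 5 highest and 5 lowest past the fold being named; 100 rather than 200 positive cells were required after seeing the data. Of each list the 3 highest and 3 lowest ratios in fibroblasts (LECs for the flow list) are named, leaving out genes under 100 UMIs summed over the tissues, beside genes past the fold. 1 gene of the channel list is not reported here. Alternatives used natural log values, means of per-cell CPM, other totals, cells thinned or left out, and colon cells split by Xist and Y-linked UMIs. The members and lists were chosen with earlier results of these data known.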

Additional observations from a re-analysis of the deposited data

Results flagged for a closer look

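The log2 ratio of colon to small intestinal Piezo2 pointed in opposite directions between cell types of the same libraries. It was 3.39 in SEMFs, against -2.77 in CD81- FBs, -3.55 in trophocytes, -0.91 in LECs, -1.68 in BECs and -0.78 in SMCs, and the counting intervals lay on opposite sides of 0. The difference between types was not tested, since each tissue had 1 library.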

How the results depend on the processing

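No paired analysis was possible because each tissue had 1 library, and for the same reason no library could be left out. Of 141 alternative values for the 14 tissue ratios, 118 stayed within the counting interval of the reported ratio, 23 moved outside it and 137 kept its sign; the 4 of the other sign were for Piezo1 in BECs, whose interval included 0. The difference of mean natural log values, on the log2 scale, was 0.25 for Piezo1 and -0.80 for Piezo2 in pooled fibroblasts. It averages log values over cells, most of them without a UMI of the gene. It is therefore smaller in size than a log2 ratio of CPM and not comparable with it. Every Piezo2 ratio moved outside the interval by this setting, and so did every Piezo1 ratio except those in BECs and SMCs. The pooled fibroblast log2 ratio of Piezo2 was -3.29 with the colon's Y-linked cells alone, -4.03 with its Xist cells alone and -2.89 with the fibroblast types weighted equally. The cause was not tested. In SEMFs the Piezo2 difference of mean natural log values was 0.21, again mostly over cells without a UMI. The SEMF log2 ratio of Piezo2 CPM was 4.23 without the 6% of cells with the most UMIs. With the Y-linked colon cells alone, Piezo2 in BECs gave no value (0 colon UMIs). Of the 5 genes most like each member, 2 (Piezo1) and 1 (Piezo2) stayed among the top 5 by Spearman correlation, and 3 and 4 with a minimum of 50 CPM. Depth limits Piezo2 most in colon BECs (4 Piezo2 UMIs of 269665 in all) and colon SMCs (26 of 772279).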
